A study of Mus musculus with 12 samples.

Results

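The 10 genes described here encode common proteins of the actin, tubulin and intermediate filament cytoskeleton, with 1 transcription factor that acts on such genes: Actb, Actg1, Tmsb4x, Pfn1, Cfl1, Vim, Tuba1a, Tuba1b, Tubb5 and Srf. They were taken by name from a table of read counts for 57490 genes in the kidneys of 12 mice. The set was chosen by the level of Actb, a gene often used as a reference, which was lower in treated than in untreated db/db mice. Values of that contrast (YHY vs Model) are therefore given for the 10 genes as description, without a test. The comparison of YHY with Ctrl uses the same YHY mice, and that of Model with Ctrl the same Model mice, so no test of Actb itself is given in any of the 3.

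The study examined a herbal decoction (Yiqi Huoxue Yangyin, YHY) in mice without functional leptin receptors, which grow obese and diabetic. All mice were male, came from GemPharmatech and were 13 weeks old when kidneys were taken. The Ctrl group held 4 heterozygous db/m mice on the BKS background, and the Model group 4 db/db mice (BKS.Cg-Dock7m +/+ Leprdb/JNju); both were given purified water by gavage. The YHY group held 4 db/db mice of the same strain that received a water extract of YHY (6.24 g/mL, with 50 µL for each 10 g of weight) once daily for 4 weeks. The db/db mice had been picked for high random blood glucose. The labels give kidney as the source, and the design text of the series gives renal cortex. RNA was enriched with oligo(dT) and sequenced on Illumina instruments.

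Actin monomers join into filaments that carry cell shape, adhesion and contraction, and small proteins set how fast filaments grow and break: thymosin beta 4 holds monomers back, profilin delivers them to growing ends, and cofilin severs old filaments. Tubulins pair as alpha and beta subunits to form microtubules, and vimentin builds intermediate filaments in mesenchymal and endothelial cells, leukocytes and podocytes, with little in healthy tubules. SRF, together with the actin-sensing MRTF cofactors, drives many genes of the actin cytoskeleton, including its own, and the brush border and stress fibres of kidney cells rest on these proteins.

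Libraries held 24415658 (Model 4) to 33276634 (Ctrl 1) counts. Transcripts of the mitochondrial genome took 18.6, 22.7, 18.4 and 18.5% of counts in Ctrl 1 to Ctrl 4; 41.2, 58.9, 55.3 and 53.4% in Model 1 to Model 4; and 53.8, 64.6, 54.6 and 54.2% in YHY 1 to YHY 4. The share of a library left for cytoskeleton transcripts thus differed between db/m and db/db mice, and the part of this in the results below was not tested. Levels are given as CPM, read counts per library of standard size after scaling by TMM, which sets the typical gene to no change. With library size alone in its place, the median log2 fold change of all genes moved from 0.04 to -0.39 in Model vs Ctrl and from 0.10 to -0.33 in YHY vs Ctrl, and the share of calls that were higher from 51.5 to 21.4% and from 51.9 to 28.4%. Upper-quartile scaling put those medians at 0.14 and 0.22.

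All 10 genes passed the filter on low counts, with from 108 counts (Tuba1a, YHY 2) to 37603 (Actb, Ctrl 4) in a library. In Model vs Ctrl, 3 of the 9 genes besides Actb were called at an adjusted p under 0.05 in the edgeR quasi-likelihood test: Vim was higher, and Actg1 and Tuba1a were lower. Among all 17431 genes tested 38.0% were called there (19.6% higher and 18.5% lower). The median log2 fold change of the 10 was -0.10, against 0.04 for all genes. In YHY vs Model, where Actb was chosen, every YHY mouse lay below every Model mouse for 4 of the 10 (Actb, Actg1, Tuba1b and Srf), as for 9.28% of all genes tested, and 13.3% of all genes were called in that comparison (5.63% higher and 7.62% lower, 2311 genes, against 1146 without Model 3), and nothing is read from the count. The log2 fold change was negative for 7 of the 10 genes and positive for 3. Its median was -0.39 (0.02 for all genes), which includes Actb in the contrast that chose it, so nothing is read from it either. No scaling turned a sign there, but those of Tmsb4x and Tuba1a turned without YHY 1. That of Tuba1a also turned when its counts were summed with those of Tuba1b. In YHY vs Ctrl, which shares the YHY mice, 5 of the 9 genes besides Actb were called, 1 higher (Vim) and 4 lower (Actg1, Cfl1, Tuba1b and Srf), beside 50.3% of all genes (26.1% higher and 24.2% lower). The median there was -0.63 for the 10 and 0.10 for all genes. In whole tissue, fewer cells of a type and less RNA per cell cannot be told apart, for any gene below.

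**Figure D1:**
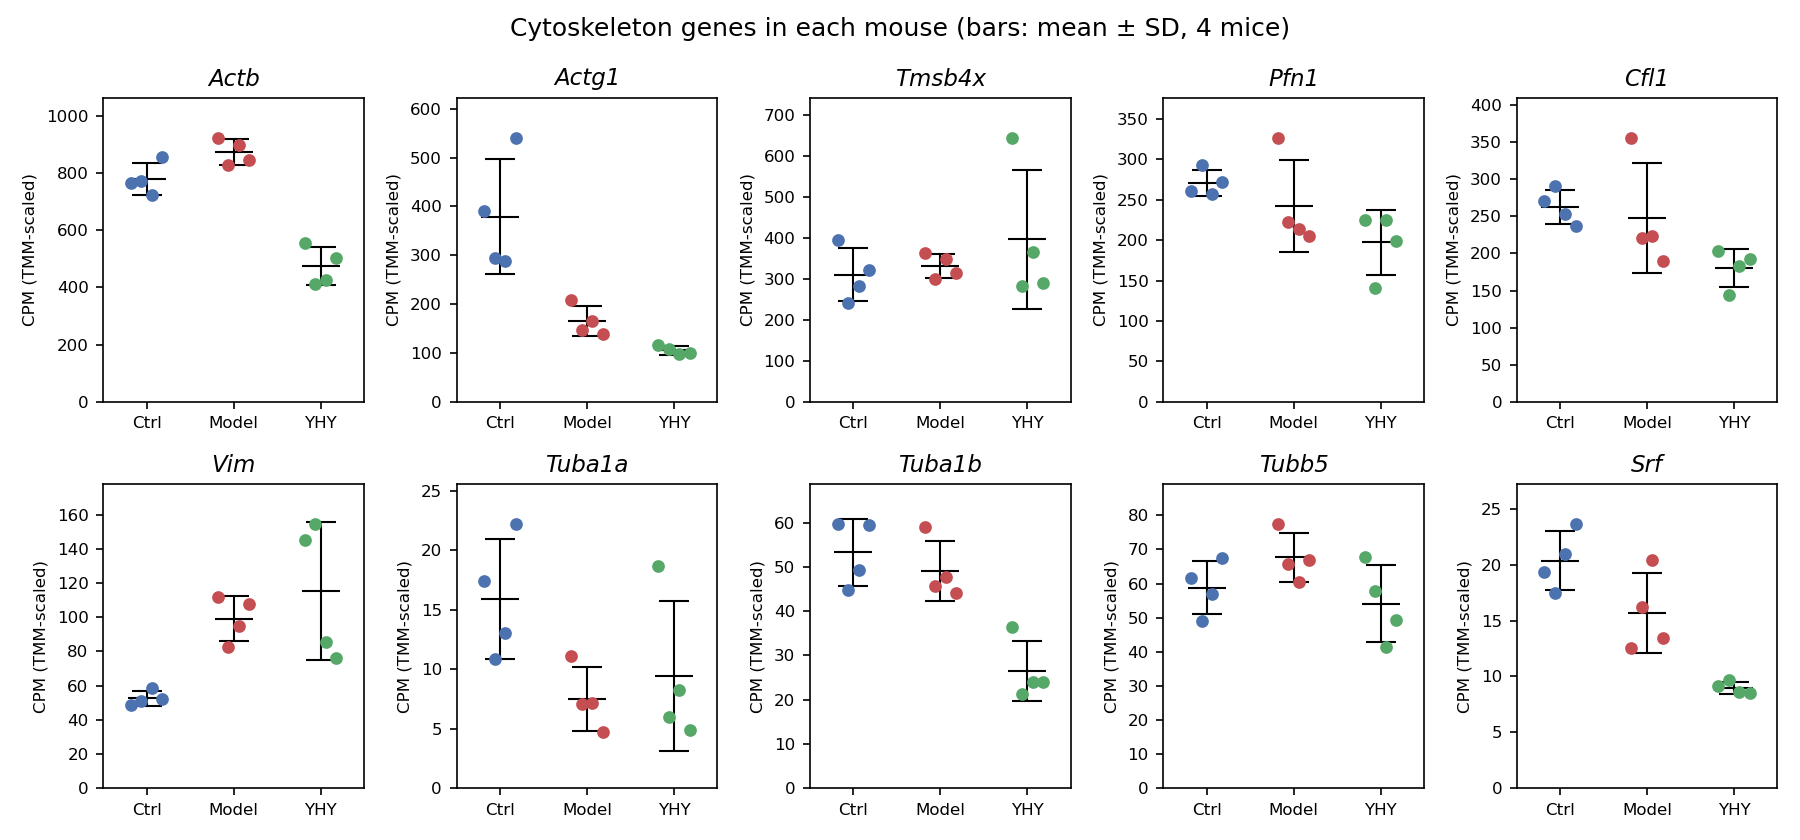
CPM of each of the 10 cytoskeleton genes in every mouse, with the mean and SD of 4 mice per group and axes that start at 0. Actg1 was lower and Vim higher in both db/db groups than in db/m mice, with signs kept under every scaling tried, though Vim was not called in Model vs Ctrl under library size alone.

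Per length of transcript (FPKM, CPM per kilobase), Actb stood highest in Ctrl mice, at 291 ± 20.6 (mean ± SD), and Srf lowest, at 7.05 ± 0.908. Between them the Ctrl order was Tmsb4x (226 ± 47.2), Actg1 (142 ± 44.4), Pfn1 (112.5 ± 6.67), Cfl1 (92.5 ± 8.11), Tuba1b (28.4 ± 4.01), Tubb5 (17.7 ± 2.35), Vim (11.1 ± 0.90) and Tuba1a (8.82 ± 2.79). Neighbours overlapped between mice from Actb through Tmsb4x and Actg1 to Pfn1, and again from Vim through Tuba1a to Srf; the other neighbours did not. In Model mice Actb (326 ± 16.8) and Tmsb4x (241 ± 21.7) stood apart from each other and from the rest, while Pfn1, Cfl1 and Actg1 overlapped in turn at 101 ± 23.7, 87.1 ± 26 and 62.1 ± 11.6. Further down the Model order came Tuba1b (26.2 ± 3.58), Vim (20.9 ± 2.82), Tubb5 (20.3 ± 2.15), Srf (5.42 ± 1.23) and Tuba1a (4.16 ± 1.48), with no overlap at the step from Tubb5 to Srf. In YHY mice Tmsb4x (288.5 ± 124) had the highest mean and overlapped Actb (177 ± 24.9); Pfn1 (82.0 ± 16.6), Cfl1 (63.5 ± 9.10) and Actg1 (39.6 ± 3.34) followed. Vim (24.3 ± 8.48), Tubb5 (16.3 ± 3.41) and Tuba1b (14.1 ± 3.61) overlapped in turn in YHY mice, as did Tuba1a (5.23 ± 3.51) and Srf (3.1 ± 0.189).

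**Figure D2:**
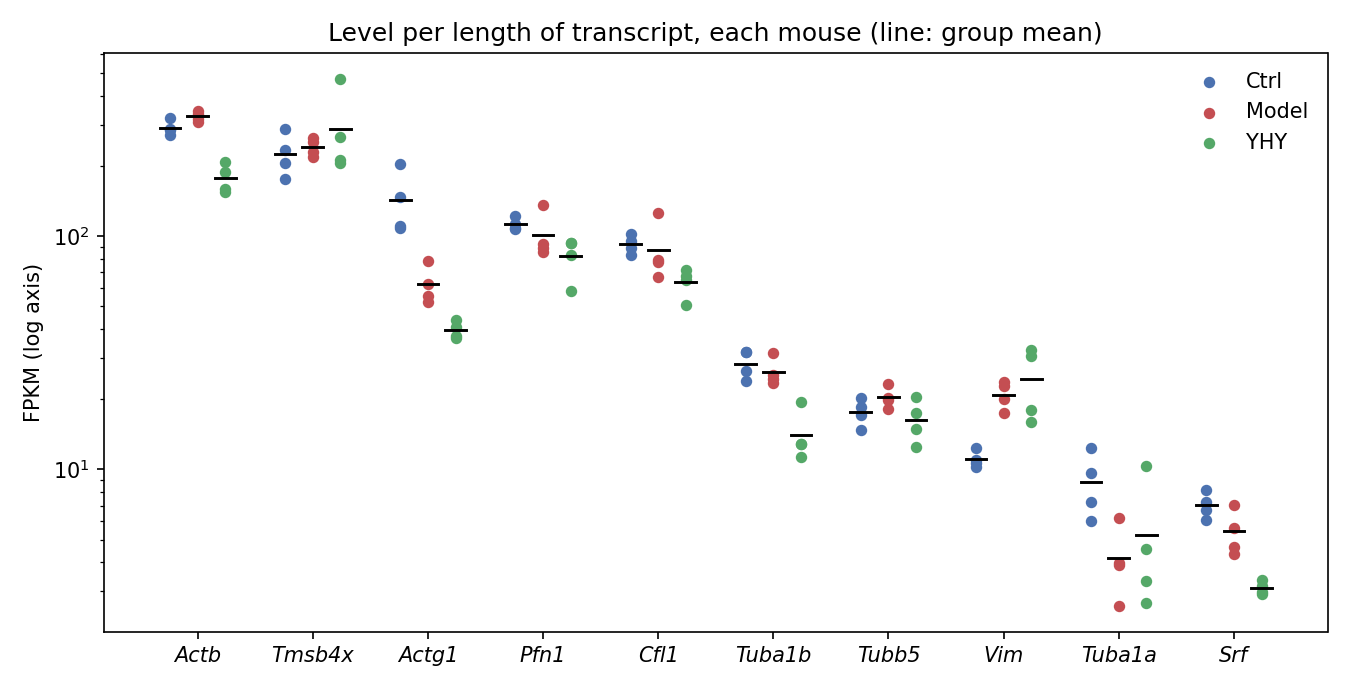
FPKM of the 10 genes in each mouse on a log axis, ordered by the Ctrl mean, with a line at each group mean. Levels spanned from Actb and Tmsb4x at the top to Tuba1a and Srf at the bottom in all 3 groups.

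Actb encodes beta-actin, 1 of the 2 actins of non-muscle cells, and the study's methods name it as the endogenous control for qPCR, described for cultured mouse podocytes. The study also reported qPCR of kidney tissue from db/db mice, for which no separate control was named. The primers listed for it are shown because the 2 cytoplasmic actins are close in sequence; capitals mark the bases that differ from the closest site in Actg1.
Actb forward: gtgaCgtTgaCatccgTaaaga
Actb reverse: gccGgactcatcGtactcc
The forward primer had 4 mismatches to Actg1 and the reverse primer 2. Both matched exactly only transcripts of Actb in GENCODE vM21 (GRCm38), with a product of 245 bases in 2 transcripts. In Actb-201 they fell in coding exons 5 and 6, on the minus strand at chr5:142904176-142904197 and chr5:142903828-142903846.

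In CPM, Actb read 766, 772, 724.5 and 856 in Ctrl 1 to Ctrl 4, 925, 827, 897 and 847 in Model 1 to Model 4, and 554, 413, 426 and 504 in YHY 1 to YHY 4. The Model mice spread over the upper part of the Ctrl range and above it, and the 4 YHY mice lay below all 8 others. The group means were 779.6 ± 55.2 in Ctrl, 874 ± 45 in Model and 474 ± 66.8 in YHY. In Model vs Ctrl Actb gave log2 fold change 0.16, SE 0.15, also without a test because the Model mice took part in its choice. Its sign turned there under library size alone (-0.27), and the value ran from 0.08 to 0.19 with 1 mouse left out. The YHY vs Model values that chose the set were log2 fold change -0.88, SE 0.16, a Model mean 1.84 times the YHY mean, and ran from -0.97 to -0.82 over 22 alternatives. Against Ctrl the YHY mice, the same that chose the gene, lay lower in 4 of 4 mice (log2 fold change -0.72, SE 0.16), which is given without a test. As a plain share of all counts Actb took 0.0959 ± 0.0138% in Ctrl, 0.0797 ± 0.0128% in Model and 0.0437 ± 0.0113% in YHY. Of the counts outside the mitochondrial genome, it took 0.119 ± 0.0154, 0.167 ± 0.00586 and 0.10 ± 0.0172%. On the first of these scales Actb had its highest mean in Ctrl mice, and on the second in Model mice; on both its lowest mean was in YHY mice.

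A ratio of counts of 2 genes in 1 library needs no scaling of libraries, so Actb was also set against 6 other usual reference genes. Actb counts per count of Hprt, a purine salvage enzyme, were 8.96, 9.11, 8.44 and 13.2 in Ctrl 1 to Ctrl 4, 17.7, 26, 25.3 and 31.3 in Model 1 to Model 4, and 11.7, 10.8, 11.2 and 16.4 in YHY 1 to YHY 4. All Model mice lay above all Ctrl mice, and all YHY mice below all Model mice. Per count of Ppia, which encodes cyclophilin A, the Actb ratio was 1.52, 1.48, 1.46 and 1.74 in Ctrl 1 to Ctrl 4, 2.34, 3.36, 3.41 and 3.87 in Model 1 to Model 4, and 1.90, 2.42, 1.59 and 1.87 in YHY 1 to YHY 4. Here too each Model mouse was above each Ctrl mouse, while the highest YHY ratio passed the lowest Model ratio. Per count of the ribosomal protein gene Rplp0, Actb stood at 2.05, 2.28, 2.07 and 2.07 in Ctrl 1 to Ctrl 4, 3.93, 3.52, 4.03 and 3.34 in Model 1 to Model 4, and 2.69, 2.51, 2.24 and 3.12 in YHY 1 to YHY 4. Ctrl, YHY and Model mice followed in that order of means, with YHY and Ctrl mice overlapping. Against B2m, a subunit of MHC class I, the ratio of Actb was 2.49, 3.01, 2.96 and 3.70 in Ctrl 1 to Ctrl 4, 4.13, 5.66, 6.54 and 8.72 in Model 1 to Model 4, and 3.09, 3.43, 2.00 and 3.68 in YHY 1 to YHY 4. Ctrl and YHY mice overlapped, and both lay below every Model mouse. Per count of Tbp, the TATA-binding protein, Actb read 63.0, 51.3, 69.5 and 79.5 in Ctrl 1 to Ctrl 4, 43.8, 31.4, 34.2 and 36.3 in Model 1 to Model 4, and 16.5, 8.51, 14.8 and 11.7 in YHY 1 to YHY 4. This was the only ratio of the 6 that was lower in every Model mouse than in every Ctrl mouse, and the YHY mice were lower still. Per count of Gapdh, a glycolytic enzyme, Actb was at 13.1, 8.04, 17.4 and 16.7 in Ctrl 1 to Ctrl 4, 7.84, 8.57, 9.56 and 17.4 in Model 1 to Model 4, and 16.1, 5.78, 7.31 and 4.05 in YHY 1 to YHY 4, with overlap between all groups.

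The Model minus Ctrl difference in log2 of the Actb ratio was 1.33 for Hprt, 1.05 for Ppia, 1.00 for B2m and 0.80 for Rplp0, with each of the 4 Model mice above all Ctrl mice. It was -0.85 for Tbp, with each of the 4 Model mice below all Ctrl mice, and -0.36 for Gapdh, with overlap. These values are given without a test, since the Model mice took part in the choice of Actb. Actb thus lay higher or lower in Model than in Ctrl mice according to the gene it was set against. In YHY vs Model the log2 difference of the Actb ratio, as description, was negative for each of the 6: -1.53 for Tbp, -1.02 for B2m, -0.99 for Hprt, -0.73 for Ppia, -0.51 for Gapdh and -0.49 for Rplp0. The ranges of the 2 groups did not overlap for Tbp, B2m, Hprt and Rplp0. In YHY vs Ctrl the differences were not tested and went both ways, from -2.38 for Tbp and -0.87 for Gapdh through -0.02 for B2m (turned to 0.17 without YHY 3 and to 0.08 without Ctrl 4) to 0.31 for Rplp0, 0.31 for Ppia and 0.34 for Hprt. Leaving out 1 mouse or using the 9 mice of the authors' means moved some of these differences. For Gapdh they ran from -0.89 to -0.23 in YHY vs Model and from -0.62 to -0.23 in Model vs Ctrl. In YHY vs Ctrl they ran from 0.17 to 0.48 for Hprt and from 0.20 to 0.40 for Ppia.

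**Figure D3:**
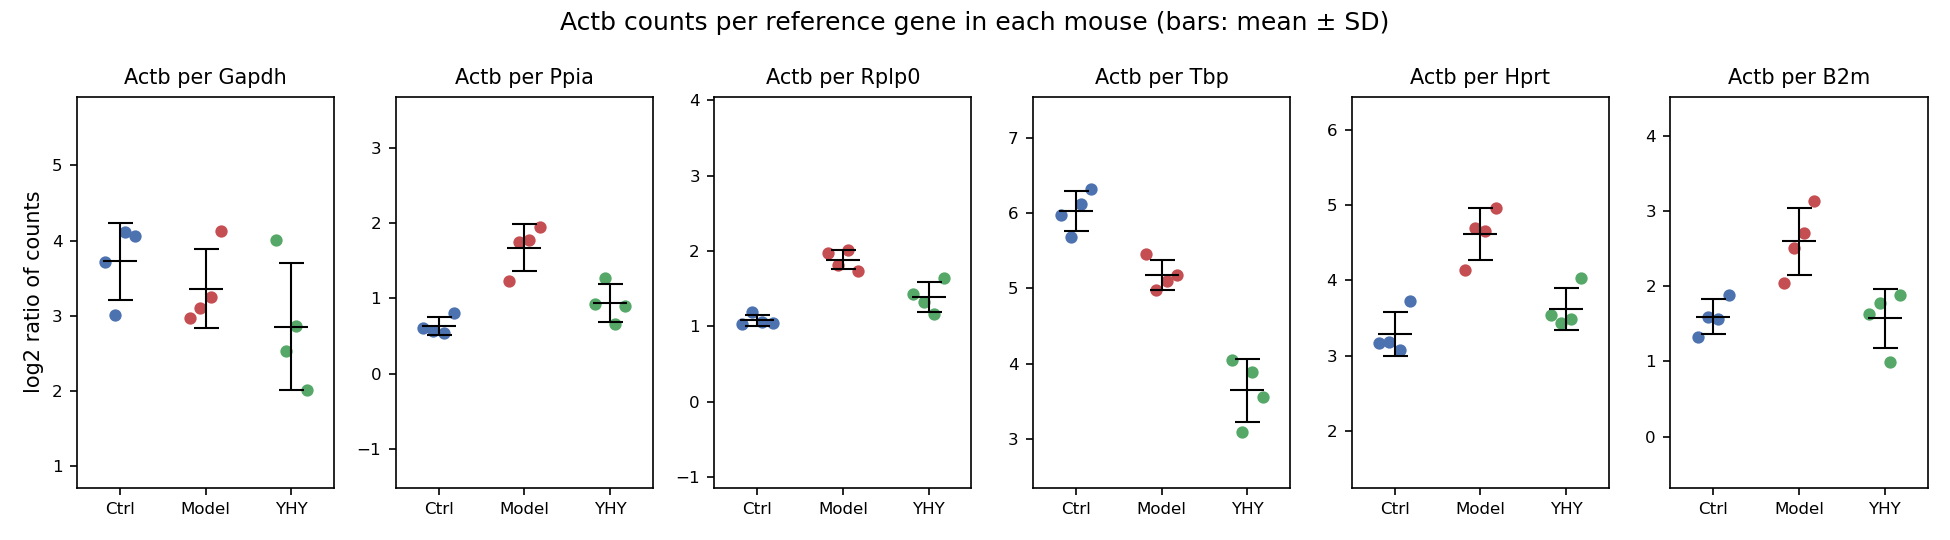
Log2 of Actb counts per count of each of 6 reference genes in every mouse, with mean and SD; each panel spans the same range of log2 values. The ratio lay higher in Model than in Ctrl mice for Ppia, Rplp0, Hprt and B2m and lower for Tbp, and ratios within a library do not change with scaling.

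Of 16 other usual reference genes, 13 were called in Model vs Ctrl. There 2 were higher (Rps18 1.18 and Tbp 1.00), 11 were lower, and the median was -0.77 against 0.04 for all genes, with the sign of the median kept under every scaling. The 11 lower ones were Pgk1 -1.53, Sdha -1.32, Hprt -1.13, Eef1a1 -1.08, Gusb -0.89, Rpl32 -0.87, Ppia -0.84, B2m -0.78, Tfrc -0.76, Ywhaz -0.64 and Rplp0 -0.64 (log2 fold change). The call of B2m was lost without Model 4 (-0.62), and that of Tfrc without Model 2 (-0.70) or Model 3 (-0.72). Gapdh (0.53), Polr2a (-0.08, turned to 0.02 under upper-quartile scaling) and Rpl13a (-0.37) were not called. In YHY vs Model 1 of the 16 was higher (Tbp 0.67), 1 was lower (Rpl13a -0.54) and 14 were not called, with a median of -0.03. Among all genes tested, 19.6% were called higher and 18.5% lower in Model vs Ctrl, and 5.63 and 7.62% in YHY vs Model.

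Actg1 encodes gamma-actin, the other cytoplasmic actin, which is rich in the cell cortex and the brush border. Its promoter is shown because the set contains SRF, whose binding motif is the CArG box. The strict form of the box (CC, a fixed run of A or T, then GG) was sought in 300-base RefSeq promoters (250 bases before to 50 after the start, GRCm38.p6). The gene's strand was read, and the pattern is its own reverse complement. Capitals mark the box.
Actg1 promoter: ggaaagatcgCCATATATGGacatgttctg
This stretch, chr11:120348566-120348595 on the minus strand, holds a box that starts 90 bases before the gene's start. Promoters of 9 of the 10 genes were in the table, and that of Actb was missing. A box was found in 2 of the 9, Actg1 and Srf, and in 535 of all 32851 promoters (1.63%). A match describes letters in a window and was not tested as a site.

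In CPM, Actg1 read 391, 294, 288 and 541 in Ctrl 1 to Ctrl 4, 208, 147, 166 and 139 in Model 1 to Model 4, and 116, 109, 97.2 and 98.9 in YHY 1 to YHY 4. The 3 groups did not overlap at all, with Ctrl above Model and Model above YHY, and the Ctrl mice spread most, from 288 (Ctrl 3) to 541 (Ctrl 4). Group means were 378.5 ± 118, 165 ± 31.0 and 105 ± 8.88. Actg1 was lower in 4 of 4 Model mice than in Ctrl mice (log2 fold change -1.20, SE 0.20, adjusted p 0.00033; Ctrl mean 2.29 times the Model mean), and it was called under all 21 alternatives. Its values for YHY vs Model were log2 fold change -0.65, SE 0.20. Its YHY vs Ctrl value was the lowest log2 fold change of the 10 genes (log2 fold change -1.85, SE 0.21, adjusted p 4.22e-06), with a Ctrl mean 3.6 times the YHY mean.

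Actb counts exceeded Actg1 counts in every library, by 2.17 ± 0.488 times in Ctrl, 5.39 ± 0.695 times in Model and 4.51 ± 0.559 times in YHY mice. The Ctrl ratios ended at 2.62, below the lowest ratio of a YHY mouse (3.80) and of a Model mouse (4.44). The 2 genes share most of their coding sequence, and the deposited notes give neither the strand setting nor the handling of reads that fit both, so how reads were divided between them is uncertain. Summed, Actb and Actg1 gave -0.16 in Model vs Ctrl, so the sign of Actb alone turned there. The sum gave -0.84 in YHY vs Model and -1.0 in YHY vs Ctrl, also as description. Of the muscle-type actins, Acta2 and Actg2 passed the filter and Acta1 and Actc1 did not; Acta2 gave 0.13 in Model vs Ctrl (turned under library size alone and, at -0.04, without Ctrl 4) and 0.07 in YHY vs Model (-0.0056 without YHY 2), Actg2 gave -1.69 and 2.85 (-6.88 and 8.04, called, without Model 4), and with all mice 0 of these were called in edgeR or with DESeq2 (1 at an unadjusted p under 0.05, Actg2 in YHY vs Model).

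**Figure D4:**
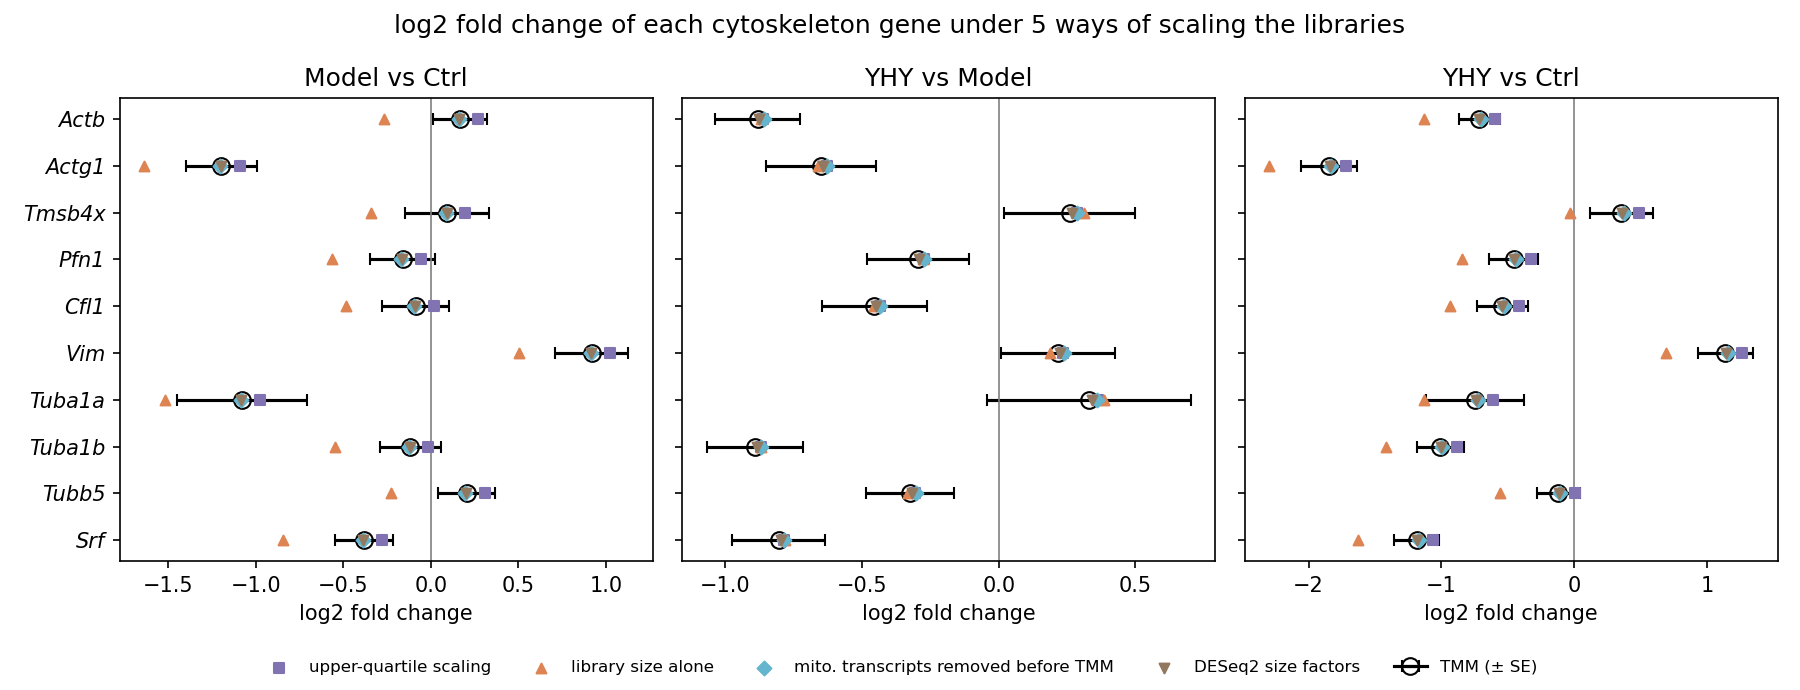
Log2 fold change of each gene in the 3 comparisons with TMM scaling (open circles, ± SE) and 4 other scalings. Library size alone moved every gene down in Model vs Ctrl and YHY vs Ctrl, which turned the sign of Actb, Tmsb4x and Tubb5 in Model vs Ctrl and of Tmsb4x in YHY vs Ctrl; upper-quartile scaling turned Cfl1 in Model vs Ctrl and Tubb5 in YHY vs Ctrl.

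Tmsb4x encodes thymosin beta 4, which binds actin monomers and keeps them in reserve. Its CPM was 393, 241, 282 and 321 in Ctrl 1 to Ctrl 4, 362, 298, 347.5 and 314 in Model 1 to Model 4, and 644, 283, 365 and 290.2 in YHY 1 to YHY 4. YHY 1 stood far above the other 11 mice, which overlapped across the 3 groups. The means were 309.5 ± 64.7 in Ctrl, 330.4 ± 29.7 in Model and 396 ± 169.6 in YHY mice. Tmsb4x was not called in Model vs Ctrl (log2 fold change 0.09, SE 0.24, adjusted p 0.787; -0.34 under library size alone, and -0.01 without Ctrl 2 or without Model 1). YHY vs Model gave log2 fold change 0.26, SE 0.24, and -0.08 without YHY 1. YHY and Ctrl mice gave no call either (log2 fold change 0.35, SE 0.24, adjusted p 0.233). That value was -0.03 under library size alone and ran from 0.01 to 0.48 with 1 mouse left out.

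Pfn1 encodes profilin, which binds actin monomers and feeds them to growing filament ends. Its CPM was 261, 293, 257 and 272 in Ctrl 1 to Ctrl 4, 327, 223, 213 and 205 in Model 1 to Model 4, and 225, 140.4, 225 and 199 in YHY 1 to YHY 4. Model 1 was above all other mice, the other 3 Model mice lay below the Ctrl range, and the 4 YHY mice were below all Ctrl mice. The means were 271 ± 16.1 in Ctrl, 242 ± 57.0 in Model and 197 ± 39.8 in YHY mice. Pfn1 was not called in Model vs Ctrl (log2 fold change -0.16, SE 0.19, adjusted p 0.526), where leaving out Model 1 moved the log2 fold change to -0.40 (adjusted p 0.0876, with adjusted p 0.0876 to 0.834 over 21 alternatives). For YHY vs Model, Pfn1 gave log2 fold change -0.30, SE 0.19, and -0.11 without Model 1. Pfn1 narrowly missed the threshold in YHY vs Ctrl (log2 fold change -0.46, SE 0.19, adjusted p 0.0515), and it was called with DESeq2 (0.031), library size alone (0.0133), only the 8 mice compared (0.0352) and without Model 1 (0.0174), YHY 1 (0.0432) or YHY 3 (0.0445), with adjusted p 0.0133 to 0.159 over 21 alternatives.

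Cfl1 encodes cofilin, which severs aged actin filaments and returns monomers to the pool. Its CPM was 271, 291, 253.5 and 237 in Ctrl 1 to Ctrl 4, 356, 220.5, 224 and 190.3 in Model 1 to Model 4, and 203.5, 144, 183 and 192 in YHY 1 to YHY 4. As for Pfn1, Model 1 was the highest of all mice, the other 3 Model mice were below the Ctrl range, and all YHY mice were below all Ctrl mice. Over the 12 mice, the log2 CPM of Cfl1 and Pfn1 had a Pearson correlation of 0.938, and 0.902 after removing group means, where both values of a mouse come from 1 library and share its scaling. The means of Cfl1 were 263 ± 23.1 in Ctrl, 248 ± 74.0 in Model and 181 ± 25.9 in YHY mice. It was not called in Model vs Ctrl (log2 fold change -0.09, SE 0.19, adjusted p 0.753; sign turned to 0.02 under upper-quartile scaling and to 0.02 without Model 4). Between YHY and Model mice, Cfl1 gave log2 fold change -0.46, SE 0.19, and -0.22 without Model 1. Cfl1 was lower in 4 of 4 YHY mice than in Ctrl mice (log2 fold change -0.54, SE 0.19, adjusted p 0.0269), but the call was lost under upper-quartile scaling (adjusted p 0.0804) and without Ctrl 2 (0.0656) or YHY 2 (0.0771), with adjusted p 0.00383 to 0.0804 over 21 alternatives.

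Other genes of actin turnover gave mixed counts in Model vs Ctrl: of 19 tested of 20 listed for monomer binding and filament turnover, 4 were higher and 8 lower (median -0.14), with Dstn -1.63, Ssh2 1.20, Pfn2 -1.05 and Coro1b -0.88 (log2 fold change) the largest changes. Dstn encodes destrin, a close relative of cofilin. Of the 18 genes of the Arp2/3 complex, its activators and capping proteins, which nucleate and cap branched filaments, 9 were lower and 0 higher in edgeR (1 higher at an unadjusted p under 0.05 and 0 with DESeq2, median -0.40, with Actr3 -0.79, Arpc4 -0.77, Wasl -0.70 and Capza1 -0.69). Among 13 formins and Ena/VASP proteins, which extend unbranched filaments, 4 were higher and 2 lower (median 0.26, turned under library size alone, with Daam2 1.55, Fmn1 -1.0, Inf2 0.87 and Fmnl3 0.79). Cross-linking, membrane linkage and contraction gave 4 higher and 5 lower of 27 (median -0.26, with Myh10 -1.12, Myl12a -0.77, Cald1 -0.70 and Flna 0.69). Between YHY and Model mice the Arp2/3 and capping list had 5 lower and 1 higher (median -0.25, with Capg 0.91, Arpc1a -0.62, Arpc4 -0.59 and Arpc5l -0.51), and the cross-linking list 3 higher and 1 lower (median 0.12, with Pls1 -1.14, Actn1 0.75, Myh11 0.57 and Tpm1 0.52). The remaining 2 lists had 2 calls and 1 call in YHY vs Model: Ssh3 0.67 and Wdr1 -0.55 in monomer turnover (median -0.02, turned under library size alone, upper-quartile scaling and removal of mitochondrial transcripts), and Evl 0.83, named after its value was seen, among formins and Ena/VASP proteins (median 0.31). Few calls in YHY vs Model held throughout: of 28 named genes outside the 10, 4 (Pls1, Stmn1, Mki67 and Cdk1) kept their call under every alternative that kept the gene and with every mouse left out, against 40 of 65 in Model vs Ctrl. In Model vs Ctrl the calls of Inf2, Fmnl3 and Flna were lost under library size alone, and that of Fmnl3 also without Ctrl 1 (0.76) or Ctrl 2 (0.62). Beside the counts of these lists, 19.6% of all genes tested were called higher and 18.5% lower in Model vs Ctrl. The shares in YHY vs Model were 5.63 and 7.62%.

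Vim encodes vimentin, the intermediate filament protein of mesenchymal cells. Its CPM was 48.6, 50.7, 58.5 and 52.0 in Ctrl 1 to Ctrl 4, 112, 82.5, 94.7 and 108 in Model 1 to Model 4, and 145, 155, 85.6 and 76.1 in YHY 1 to YHY 4. All 8 db/db mice lay above all 4 db/m mice, and the YHY mice lay on either side of the Model range, with YHY 1 and YHY 2 above it and YHY 4 below it. The means were 52.5 ± 4.27 in Ctrl, 99.2 ± 13.4 in Model and 115 ± 40.2 in YHY mice. Vim was higher in 4 of 4 Model mice (log2 fold change 0.92, SE 0.21, adjusted p 0.00268; 1.89 times the Ctrl mean), and the call was lost under library size alone (0.50, adjusted p 0.103, with adjusted p 0.000156 to 0.103 over 21 alternatives). Set against Model mice, YHY mice gave log2 fold change 0.22, SE 0.21, and 0.04 to 0.37 with 1 mouse left out. It was higher in 4 of 4 YHY mice than in Ctrl mice (log2 fold change 1.14, SE 0.21, adjusted p 0.00032; 2.2 times the Ctrl mean) and was called under all 21 alternatives. Among 11 other intermediate filament and lamin genes, 2 were higher in Model vs Ctrl, Nes 1.23 and Des 0.88 (nestin and desmin, both known in podocytes), and 0 lower in edgeR (1 at an unadjusted p under 0.05, 0 with DESeq2), with a median of 0.15 that turned under library size alone, and the call of Des was lost there. Between YHY and Model mice, Nes -0.76 and Lmnb2 0.67 were the 2 called (median 0.21). Shares of all genes called in these comparisons stand in the next paragraph.

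Markers of cells rich in vimentin are given beside it, and their part in its level was not tested. Of all genes tested, 19.6% were called higher and 18.5% lower in Model vs Ctrl. Those shares were 5.63 and 7.62% in YHY vs Model, and 26.1 and 24.2% in YHY vs Ctrl. The counts of markers called are given beside them as description. Fibroblast, mesangial and smooth muscle markers summed to 292.5, 253, 259 and 197 in Ctrl 1 to Ctrl 4, 263, 353, 289 and 264 in Model 1 to Model 4, and 385, 459, 324 and 212 in YHY 1 to YHY 4 CPM, led by Acta2 (mean 55.8). Of these 9, 3 were higher in Model vs Ctrl (Des 0.88, Pdgfra 0.75 and Pdgfrb 0.52, median 0.13, turned under library size alone) and 1 in YHY vs Model (Myh11 0.57). Leukocyte markers summed to 184, 125, 184 and 151 in Ctrl 1 to Ctrl 4, 171, 188, 232 and 287 in Model 1 to Model 4, and 309.5, 461, 203 and 164 in YHY 1 to YHY 4 CPM, led by Lyz2 (mean 146); of 7 tested of 9, 1 was higher in Model vs Ctrl (Cd68 1.05, median 0.02, turned under library size alone) and 0 were called in YHY vs Model in edgeR (3 higher at an unadjusted p under 0.05, 0 with DESeq2). Endothelial markers, led by Emcn (mean 52.4), summed to 229, 167, 225 and 221 in Ctrl 1 to Ctrl 4, 288, 244, 244 and 213.5 in Model 1 to Model 4, and 341, 229, 258 and 218 in YHY 1 to YHY 4 CPM, with 2 of 7 higher in Model vs Ctrl (Ehd3 0.72 and Egfl7 0.70, median 0.18, turned under library size alone). Podocyte markers, led by Podxl (mean 52.1), summed to 112, 127, 155 and 146 in Ctrl 1 to Ctrl 4, 262.5, 138, 154.5 and 114 in Model 1 to Model 4, and 80.6, 127.5, 85.6 and 162.5 in YHY 1 to YHY 4 CPM, with 3 of 6 higher in Model vs Ctrl (Nphs1 1.86, Ptpro 0.96 and Synpo 0.53, median 0.66). Podxl itself was not called in Model vs Ctrl. Between YHY and Model mice 0 endothelial markers were called in edgeR (1 higher and 1 lower at an unadjusted p under 0.05, 1 lower with DESeq2), and 0 podocyte markers (3 lower at an unadjusted p under 0.05, 1 lower with DESeq2). In YHY vs Ctrl, where Vim was higher, 3 of 9 fibroblast, mesangial and smooth muscle markers were higher (Pdgfra 1.37, Des 0.90 and Pdgfrb 0.75, median 0.24), and 3 of 7 leukocyte markers (Cd68 1.79 and Lyz2 1.25 among them, median 0.42). There 3 of 7 endothelial markers were higher (Egfl7 1.00, Ehd3 0.62 and Tie1 0.47, median 0.21), and of 6 podocyte markers 3 were higher and 1 lower (Nphs1 1.62, Wt1 1.31, Podxl -1.0 and Synpo 0.62, median 0.41), with all 4 medians turned under library size alone. In Model vs Ctrl the calls of Des, Pdgfra, Pdgfrb, Cd68, Ehd3, Egfl7, Ptpro and Synpo were lost under library size alone, and leaving out 1 mouse also ended those of Pdgfra (down to 0.61 without Ctrl 4), Pdgfrb (0.39 without Model 2) and Synpo (0.31 without Model 1), the last also lost with the replicate block and with the 9 mice of the authors' means. Library size alone ended, in YHY vs Ctrl, the calls of Des, Pdgfrb, Ehd3, Tie1, Synpo and Wt1, and leaving out 1 mouse also ended those of Synpo (0.52 without Ctrl 1) and Tie1 (0.37 without Ctrl 2).

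Tuba1b encodes an alpha-tubulin found in most cells. Its CPM was 59.8, 44.7, 49.3 and 59.4 in Ctrl 1 to Ctrl 4, 58.9, 45.6, 47.7 and 44.2 in Model 1 to Model 4, and 36.4, 21.3, 24 and 24.1 in YHY 1 to YHY 4. Ctrl and Model mice overlapped throughout, and all 4 YHY mice lay below them. The means were 53.3 ± 7.52 in Ctrl, 49.1 ± 6.71 in Model and 26.4 ± 6.77 in YHY mice. Tuba1b was not called in Model vs Ctrl (log2 fold change -0.12, SE 0.17, adjusted p 0.626). With 1 mouse left out Tuba1b ran there from -0.28 to -0.07, and over 21 alternatives from -0.55 to -0.01. Its YHY vs Model value was the lowest log2 fold change of the 10 genes, -0.89 (SE 0.18), next to that of Actb, and it ran from -1.09 to -0.73 over 21 alternatives. It was lower in 4 of 4 YHY mice than in Ctrl mice (log2 fold change -1.01, SE 0.18, adjusted p 0.0002) and called under all 21 alternatives.

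Tuba1a, a second alpha-tubulin known for its high level in developing neurons, read 17.4, 10.9, 13.1 and 22.2 in Ctrl 1 to Ctrl 4, 11.1, 7.05, 7.13 and 4.70 in Model 1 to Model 4, and 18.7, 5.97, 8.23 and 4.84 in YHY 1 to YHY 4 CPM. Ctrl and Model mice overlapped narrowly, at Ctrl 2 and Model 1, and YHY 1 lay within the Ctrl range, far above the other 3 YHY mice. The means were 15.9 ± 5.04 in Ctrl, 7.50 ± 2.67 in Model and 9.44 ± 6.33 in YHY mice. Tuba1a was lower in Model vs Ctrl (log2 fold change -1.08, SE 0.37, adjusted p 0.0312; 4 of 4 Model mice below the Ctrl mean). The call was lost under upper-quartile scaling (adjusted p 0.0511) and without Ctrl 1 (0.0638), Ctrl 4 (0.0902), Model 2 (0.0741), Model 3 (0.0716) or Model 4 (0.0965), with adjusted p 0.00143 to 0.298 over 22 alternatives. YHY vs Model gave log2 fold change 0.33, SE 0.37, and -0.25 without YHY 1. In YHY vs Ctrl it was not called (log2 fold change -0.75, SE 0.37, adjusted p 0.102), but it was without YHY 1 (-1.33, adjusted p 0.00223) and under library size alone (0.0366). Tuba1a was also called there with no filter on low counts (0.0206) and with the replicate number as a block (0.0262). The adjusted p ran from 0.00162 to 0.244 over 22 alternatives.

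Tuba1b counts were 3.50 ± 0.618 times those of Tuba1a in Ctrl, 6.96 ± 1.73 times in Model and 3.35 ± 1.27 times in YHY mice. Coding sequences of Tuba1a, Tuba1b and Tuba1c are also close, so the division of reads among them is uncertain. Summed, Tuba1a and Tuba1b gave -0.29 in Model vs Ctrl (adjusted p 0.298; the range over alternatives stands above), so the call of Tuba1a was lost there. The sum gave -0.66 in YHY vs Model, below 0 where Tuba1a alone was above it. Against Ctrl mice, YHY mice gave -0.95 (adjusted p 0.00162). After removing group means, the log2 CPM of Tuba1a and Tuba1b correlated at 0.918 over the 12 mice, and Tmsb4x correlated with Tuba1b at 0.915 and with Tuba1a at 0.870; YHY 1 was the highest YHY mouse for all 3.

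Tubb5 encodes a beta-tubulin present in most cells. Its CPM was 61.6, 49.0, 57.0 and 67.5 in Ctrl 1 to Ctrl 4, 77.5, 65.8, 60.4 and 67.0 in Model 1 to Model 4, and 67.7, 57.8, 41.3 and 49.4 in YHY 1 to YHY 4. The 3 groups overlapped, with Model mice in the upper part and YHY 3 the lowest of all. The means were 58.8 ± 7.82 in Ctrl, 67.7 ± 7.17 in Model and 54.1 ± 11.3 in YHY mice. Tubb5 was not called in Model vs Ctrl (log2 fold change 0.20, SE 0.16, adjusted p 0.341; -0.23 under library size alone). Its YHY vs Model values were log2 fold change -0.32, SE 0.16. In YHY vs Ctrl it was not called (log2 fold change -0.12, SE 0.16, adjusted p 0.562), with 0.0020 under upper-quartile scaling. There it passed the threshold only under library size alone (-0.56, adjusted p 0.0481, with adjusted p 0.0481 to 0.993 over 21 alternatives). With 1 mouse left out, Tubb5 ran from -0.25 to -0.02 in YHY vs Ctrl and from 0.07 to 0.25 in Model vs Ctrl.

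Of 12 other tubulins tested of 16 listed, 2 were lower in Model vs Ctrl (Tubb4b -1.24 and Tuba4a -0.54) and 1 higher (Tube1 1.52, named after its value was seen), with a median of -0.44; Tuba3a and Tuba3b had no counts in any mouse. The call of Tuba4a was lost without Model 2 (-0.52) or Model 4 (-0.51), and that of Tube1 under library size alone, with the 9 mice of the authors' means and without Ctrl 3 (1.36). Of the 12, 0 were called in YHY vs Model in edgeR (2 higher and 1 lower at an unadjusted p under 0.05, 1 of each with DESeq2, median -0.16). Of 18 tubulin folding factors and microtubule-associated proteins tested of 20, 6 were higher and 5 lower in Model vs Ctrl (median -0.19, with Tbce 1.41, Tbca -0.84, Katna1 -0.71 and Map1s 0.62). The call of Map1s was lost under library size alone and without Ctrl 1, Ctrl 3, Ctrl 4, Model 2, Model 3 or Model 4 (down to 0.47, without Ctrl 3). Stmn1, which encodes the tubulin-binding protein stathmin, was lower in YHY vs Model (-1.57) and Clasp2 higher (0.59), the 2 calls of that list (median -0.04). All genes tested gave 19.6% higher and 18.5% lower in Model vs Ctrl, and 5.63 and 7.62% in YHY vs Model.

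Srf encodes serum response factor, which binds CArG boxes. Its own promoter held 2 boxes, printed as examples of the motif (capitals) in the gene that encodes its binder.
Srf promoter, first box: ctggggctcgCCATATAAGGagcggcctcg
Srf promoter, second box: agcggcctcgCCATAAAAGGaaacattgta
They lie at chr17:46556225-46556254 and chr17:46556205-46556234 (GRCm38.p6, minus strand, RefSeq), with boxes that start 82 and 62 bases before the gene's start. The promoters of Tmsb4x, Pfn1, Cfl1, Vim, Tuba1a, Tuba1b and Tubb5 held 0 boxes of the strict form in that window. Variant boxes and boxes outside the window were not sought. The promoter of Acta2, on the list of textbook SRF targets, also held 0 by this search. In CPM, Srf read 19.4, 17.5, 21.0 and 23.7 in Ctrl 1 to Ctrl 4, 12.6, 16.2, 20.5 and 13.5 in Model 1 to Model 4, and 9.12, 9.68, 8.60 and 8.49 in YHY 1 to YHY 4. The YHY mice were close together and below all other mice, and Model mice ran from inside the Ctrl range (Model 3) to below it. The means were 20.4 ± 2.63 in Ctrl, 15.7 ± 3.55 in Model and 8.97 ± 0.546 in YHY mice. Srf was not called in Model vs Ctrl (log2 fold change -0.38, SE 0.17, adjusted p 0.0836), though it was under library size alone (adjusted p 0.00279) and without Model 3 (-0.54, 0.0253), with adjusted p 0.00279 to 0.21 over 21 alternatives. For YHY vs Model the values were log2 fold change -0.81, SE 0.17. Srf was lower in 4 of 4 YHY mice than in Ctrl mice (log2 fold change -1.19, SE 0.17, adjusted p 3.6e-05) and called under all 21 alternatives.

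Of 27 SRF cofactors and textbook targets outside the set (28 listed), 9 were higher and 1 lower in Model vs Ctrl, with a median of 0.43 that turned under library size alone; the largest changes were Ccn2 0.91, Elk4 0.84, Ier2 0.84 and Flna 0.69, and all 4 of these calls were lost under library size alone (Ccn2 0.49, Elk4 0.42, Ier2 0.40 and Flna 0.23). Between YHY and Model mice 2 were higher (Tpm1 0.52 and Mrtfb 0.45) and 1 lower (Ccn1 -1.14), with a median of -0.04, while Srf itself stood at -0.81. In YHY vs Ctrl, where Srf was called lower, 7 of the 27 were higher and 1 lower, with a median of 0.08 that turned under library size alone. Of all genes tested, 26.1% were called higher and 24.2% lower in that comparison. The shares were 19.6 and 18.5% in Model vs Ctrl, and 5.63 and 7.62% in YHY vs Model.

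**Figure D5:**
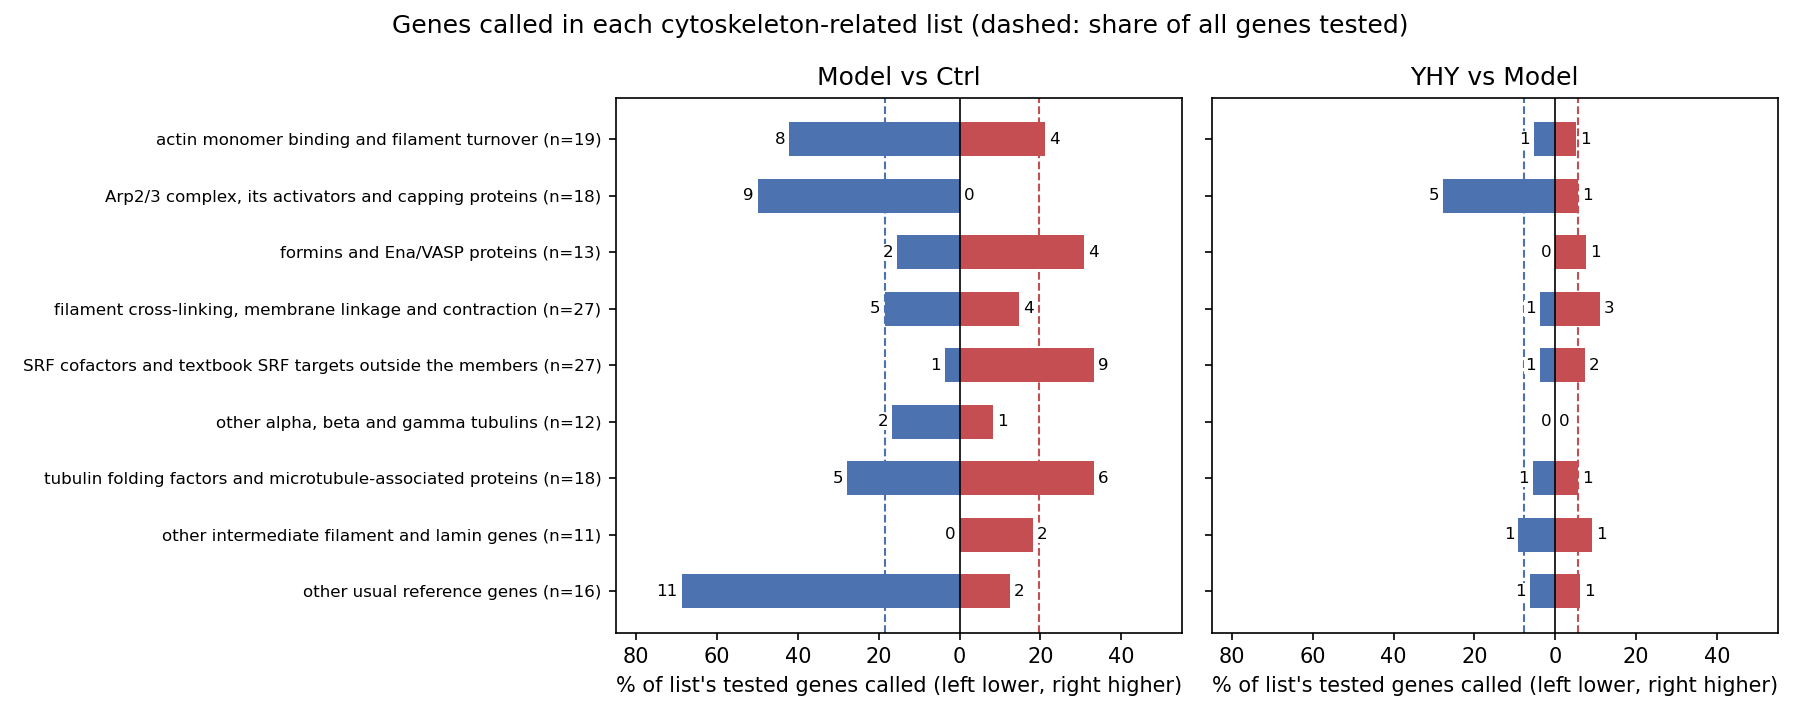
Share of each list's tested genes called higher (right) or lower (left) in Model vs Ctrl and YHY vs Model, with counts at the bars and dashed lines at the shares of all genes tested. Medians of the formin, SRF target and intermediate filament lists in Model vs Ctrl turned sign under library size alone, and that of monomer turnover in YHY vs Model turned under library size alone, upper-quartile scaling and removal of mitochondrial transcripts.

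Markers of tubules, which make up most of the kidney, are given beside Actg1 and the other genes with lower values in db/db mice, and their part in those values was not tested. Calls among all genes tested were 19.6% higher and 18.5% lower in Model vs Ctrl. They were 5.63 and 7.62% in YHY vs Model, and 26.1 and 24.2% in YHY vs Ctrl. Proximal tubule markers, led by Slc34a1 (mean 2007), summed to 4497, 5725, 4727 and 4306 in Ctrl 1 to Ctrl 4, 4089, 3920, 4224 and 3187 in Model 1 to Model 4, and 1799, 3426, 2245 and 4324 in YHY 1 to YHY 4 CPM, and of 7, 3 were lower and 1 higher in Model vs Ctrl (Lrp2 -1.68, Slc22a8 1.13, Aqp1 -0.94 and Cubn -0.90, median -0.73). Distal nephron and collecting duct markers, led by Slc12a1 (mean 856), summed to 2771, 1813, 2753 and 3492 in Ctrl 1 to Ctrl 4, 2016, 1708, 1568 and 1936 in Model 1 to Model 4, and 2168, 1699, 2571 and 1680 in YHY 1 to YHY 4 CPM, with 2 of 6 lower and 1 higher in Model vs Ctrl (Umod -2.86, Slc12a3 1.33 and Aqp2 -1.18, median -0.28). The call of Slc22a8 was lost under library size alone and without Ctrl 3, Ctrl 4 or Model 1 (0.83), and that of Aqp1 without Ctrl 4 (-0.78). That of Aqp2 was lost with DESeq2, under upper-quartile scaling and without Ctrl 1, Ctrl 4 (-0.82), Model 2, Model 3 or Model 4. Between YHY and Model mice 0 proximal markers were called in edgeR (3 lower at an unadjusted p under 0.05 and with DESeq2, median -0.55), and 0 distal markers (1 higher and 1 lower in each of those, median 0.14). In YHY vs Ctrl, where Actg1, Cfl1, Tuba1b and Srf were lower, 4 of 7 proximal markers were lower (Lrp2 -2.23, Aqp1 -1.81, Slc22a6 -1.59 and Cubn -1.53, median -1.53), with 0 higher in edgeR, at an unadjusted p under 0.05 and with DESeq2. Of the 6 distal markers 2 were lower and 1 higher there (Umod -1.89, Aqp2 -1.43 and Slc12a3 1.28, median -0.24). No marker of the lists given here was at 0 in all mice.

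Over the 12 mice, the other 9 genes differed widely in how closely they followed Actb. Among 8438 genes tested with a mean CPM of at least 10, the 5 with the highest Pearson correlation of log2 CPM with Actb were Zfp106 (0.965), Mcrs1 (0.963), Scamp2 (0.962), Szrd1 (0.960) and Ctbp1 (0.957); each point is a mouse and shares its library between the 2 genes. Tuba1b ranked 27th by that measure (0.928) Srf ranked 447th (0.782), Cfl1 752nd (0.724) and Pfn1 1299th (0.644). Actg1, the gene closest to Actb in sequence here, ranked 1364th (0.636), near Tubb5 at 1460th (0.624). Tuba1a (0.250), Tmsb4x (-0.12) and Vim (-0.38) ranked 3954th, 5293rd and 6297th. This order includes the group differences by which Actb was chosen. After removing group means the correlation with Actb was 0.776 for Tuba1b, 0.607 for Tmsb4x, 0.606 for Tuba1a, 0.546 for Actg1, 0.532 for Tubb5, 0.520 for Pfn1, 0.476 for Cfl1, 0.037 for Srf and 0.032 for Vim. Scamp2, which ranked 3rd by correlation with Actb over the 12 mice, had mean CPM of 92.0 ± 4.34 in Ctrl, 104.7 ± 3.91 in Model and 49.6 ± 2.95 in YHY mice.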

How the data were processed

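Kidney RNA of 12 mice (4 Ctrl, 4 Model, 4 YHY) was analysed from the table of read counts per gene that the authors deposited. Per the labels it was made with FastQC 0.11.9, Trimmomatic 0.39, HISAT2 2.2.1, SAMtools 1.12 and featureCounts 2.0.1 on GRCm39, with the strand setting not stated. The tables of the authors' 2 comparisons also hold group means (a signal that the authors made by dividing counts by a factor per library, with DESeq2 1.34.0 among their tools), log2 fold changes and p-values. Only the means were used, to find that they came from 9 mice (Ctrl 1, 3 and 4, Model 2, 3 and 4, YHY 1, 2 and 3). The fold changes, p-values, 12 per-mouse columns and pathway tables were left unused.

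Counts were fitted with edgeR 4.0.16 (limma 3.58.1, R 4.3.3, data.table version 1.17.8) in 1 model of 3 groups, after filterByExpr and TMM scaling, with quasi-likelihood F tests and Benjamini-Hochberg adjustment over the 17431 genes kept, called at an adjusted p under 0.05. The SE is the log2 fold change over the root of F. An exact permutation test planned for Actb ratios is not given, since the mice it uses took part in the choice of Actb. Python 3.11.15 (numpy 2.4.6, pandas 2.3.3, matplotlib 3.10.9) made the figures. The fit was tested on simulated data. It did not meet a first requirement there, on the share of large fold changes called, and this was then replaced by a requirement relative to the same test given the true spread. Alternatives were DESeq2 1.42.0, upper-quartile scaling, library size alone, mitochondrial transcripts removed before TMM, no filter on low counts, a filter of 10 counts in each library, only the 8 mice compared, the 9 mice, the replicate number as a block, leaving out each mouse, and summed counts of near-identical genes.

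Depth was 33276634, 29632718, 33236670 and 32677732 counts in Ctrl 1 to Ctrl 4, 29784346, 26356745, 26095074 and 24415658 in Model 1 to Model 4, and 25310437, 25149764, 26187322 and 29698342 in YHY 1 to YHY 4. The SE given with each fold change includes the spread between mice of 1 group.

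The 10 genes and the other lists were chosen with earlier results of these data known. All 10 genes and all 16 other reference genes were named with values. From each other list the named genes were those with the 4 largest absolute log2 fold changes among genes called with a mean CPM of at least 5. The muscle-type actins were named without being called, genes named after their values were seen are marked, and the most abundant gene of some marker lists was named for its level. For Actb the 5 genes with the highest correlation at a mean CPM of at least 10 were named. The lists were muscle-type actins, monomer binding and filament turnover, Arp2/3 complex and capping, formins and Ena/VASP proteins, cross-linking and contraction, SRF cofactors and targets, other tubulins, tubulin folding factors and microtubule-associated proteins, other intermediate filaments and lamins, other reference genes, genes measured by qPCR in the study, cell division genes, and markers of proximal tubule, distal nephron and collecting duct, podocytes, endothelium, fibroblasts with mesangium and smooth muscle, leukocytes, injured tubules and red blood cells. Of the genes planned, 1 further list and 2 further reference genes are not reported here.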

Additional observations from a re-analysis of the deposited data

Results flagged for a closer look

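In 7 of 75 groups of 4 mice that were examined, 1 mouse lay far from the other 3 relative to the spread of the group, where chance flags about 1 in 20 groups. Pfn1 stood at 327 CPM in Model 1 and at 205 to 223 in the other Model mice. The number of Actb counts per Rplp0 count was 2.28 in Ctrl 2, beside 2.05 to 2.07 in the other Ctrl mice. Actb counts per Hprt count were 13.2 in Ctrl 4, beside 8.44 to 9.11 in the other Ctrl mice, and 16.4 in YHY 4, beside 10.8 to 11.7 in the other YHY mice. The summed CPM of endothelial markers was 167 in Ctrl 2 and 221 to 229 in the other Ctrl mice. Mitochondrial transcripts took 22.7% of counts in Ctrl 2 (18.4 to 18.6% in the other Ctrl mice) and 64.6% in YHY 2 (53.8 to 54.6% in the other YHY mice). Ctrl 2 thus appeared 3 times.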

How the results depend on the processing

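The count of genes called in Model vs Ctrl, 6631, ran from 5995 to 7709 over alternatives and from 5292 to 7093 when 1 mouse was left out, and that of YHY vs Ctrl, 8762, from 7848 to 9238 and from 7806 to 8915. YHY vs Model depended more on the processing: 2311 genes became 3122 with DESeq2, the most of all alternatives, 1177 under library size alone, the fewest, 1385 with only the 8 mice compared, and 1146 (without Model 3) to 2723 (without YHY 4) with 1 mouse left out. Of the 9 cytoskeleton genes besides Actb, 2 to 3 passed the threshold in Model vs Ctrl and 4 to 8 in YHY vs Ctrl.

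Library size alone turned the log2 fold change of Actb (-0.27), Tmsb4x (-0.34), Tubb5 (-0.23) and Acta2 (-0.29) in Model vs Ctrl and of Tmsb4x (-0.033) in YHY vs Ctrl. Upper-quartile scaling turned Cfl1 (0.016) and Polr2a (0.025) in Model vs Ctrl and Tubb5 (0.0020) in YHY vs Ctrl. Summing Actb with Actg1 gave -0.16 in Model vs Ctrl. The 9 mice turned Tmsb4x (-0.11) and Tubb5 (-0.0003) in Model vs Ctrl, and Ppia (0.030) and Ywhaz (0.0065) in YHY vs Model. Leaving out 1 mouse gave ranges that crossed 0 in Model vs Ctrl for Tmsb4x (-0.011 to 0.18), Cfl1 (-0.37 to 0.020), Polr2a (-0.21 to 0.012) and Acta2 (-0.044 to 0.19), and in YHY vs Model for Tmsb4x (-0.081 to 0.39), Tuba1a (-0.25 to 0.61), B2m (-0.060 to 0.37), Gusb (-0.071 to 0.43), Hprt (-0.051 to 0.30), Ppia (-0.27 to 0.051), Rpl32 (-0.098 to 0.21), Rps18 (-0.056 to 0.068), Tfrc (-0.28 to 0.097), Ywhaz (-0.22 to 0.030) and Acta2 (-0.0056 to 0.13). The cause was not tested.

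Of the other values of these 9 genes, 225 held (same sign and side of the threshold, or within the spread between mice for YHY vs Model), 9 gained a call, 4 lost it and 1 moved by more than the spread, and with a mouse left out 309, 5 and 7 did the first 3 of these. For other named genes 1416 values held, 5 gained and 100 lost a call (1818, 4 and 202 with a mouse left out), and 40 of 65 calls in Model vs Ctrl and 4 of 28 in YHY vs Model held under every alternative that kept the gene. List medians and the genes named after their values were seen were examined under alternatives added after seeing the data. Of the medians 512 held and 55 moved (722 and 34 with a mouse left out). Actb ratios kept their direction when 1 mouse was left out or only the 9 mice were used, except that to B2m in YHY vs Ctrl (-0.12 to 0.17). The runs for YHY ratios were also added after seeing the data. With the replicate number as a block, 6289, 1920 and 8424 genes were called in Model vs Ctrl, YHY vs Model and YHY vs Ctrl, and Tuba1a gained a call in YHY vs Ctrl (adjusted p 0.0262). Mice that shared a number had correlations of -0.21 to 0.17 and mostly matched best with another number, so the number was not taken as a pairing. At this depth all 10 genes had over 100 counts in each library, and genes with few counts limited only the lists.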

Other observations

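Cell division genes, all 12 tested, were higher for 6 in Model vs Ctrl (0 lower in edgeR, 0 at an unadjusted p under 0.05 and 0 with DESeq2), with a median log2 fold change of 1.86 against 0.04 for all genes and a sign kept under every scaling. Of those called, Mki67 (2.82) passed the level set for naming. In YHY vs Model, which shares the Model mice, 3 were lower (Mki67 -2.35, and Top2a -1.59 and Cdk1 -2.75, which were named after their values were seen), with a median of -0.75. The summed CPM of the cell division genes was 39.0, 38.8, 40.2 and 36.0 in Ctrl 1 to Ctrl 4, 86.4, 71.4, 72.6 and 77.6 in Model 1 to Model 4, and 43.3, 50.6, 35.7 and 33.1 in YHY 1 to YHY 4. For every list of this section, 19.6% of all genes tested were called higher and 18.5% lower in Model vs Ctrl. In YHY vs Model the shares were 5.63 and 7.62%.

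Of 23 genes measured by qPCR in the study and tested here (24 listed), 6 were higher and 6 lower in Model vs Ctrl (Tnf 2.22, Cdkn1a 1.10, Sqstm1 -1.09 and Fto -1.04 the largest), with a median of 0.13 that turned under library size alone. In YHY vs Model 1 was higher (Trp53 0.70) and 2 lower (Atg5 -0.75 and Alkbh5 -0.41), with a median of 0.11. The study chose these genes itself. The call of Cdkn1a was lost under library size alone, with the 9 mice of the authors' means and without Ctrl 2, Ctrl 3 (0.80) or Model 4.

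Injured tubule markers gave 1 call of 6 in Model vs Ctrl, lower for Havcr1 (-4.84, named after its value was seen, and -5.81 to -4.47 with 1 mouse left out). The median there was -0.04 and turned under upper-quartile scaling. In YHY vs Model they gave 1 call, higher for Lcn2 (2.06), with a median of 0.32. The summed CPM of these 6 markers, led by Spp1 (mean 764), was 565, 624, 595 and 829 in Ctrl 1 to Ctrl 4, 1213, 599, 749 and 808 in Model 1 to Model 4, and 1067, 873, 845 and 647 in YHY 1 to YHY 4. Red blood cell markers gave 3 lower and 1 higher of 5 in Model vs Ctrl (Hbb-bs -1.46, Hbb-bt -1.17 and Hba-a2 0.70 among them, median -1.17), and 2 higher in YHY vs Model (Hbb-bs 1.29, and Alas2 1.71, named after its value was seen, median 1.11). The calls of Hbb-bt (without Ctrl 4, Model 2, Model 3 or Model 4) and Hba-a2 (under library size alone, with those 9 mice and without any 1 of 7 mice) in Model vs Ctrl were not stable, and of the YHY vs Model calls in these 4 lists only those of Mki67 and Cdk1 held throughout. The summed CPM of the red blood cell markers was 458, 306, 373 and 686 in Ctrl 1 to Ctrl 4, 476, 430.2, 293 and 271 in Model 1 to Model 4, and 492, 324, 791 and 1061 in YHY 1 to YHY 4.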
